A study of Mus musculus with 2 samples.

Results

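The genes described here are 10 targets of the transcriptional coactivator YAP, namely Ctgf, Cyr61, Amotl2, Lats2, Axl, Crim1, Ptpn14, Gadd45a, Nuak2 and Myof, out of 31053 genes in a single-cell RNA-seq table of perfused mouse liver. They were taken from a list of known targets by name, and all 10 are in the table. The question was which of them were higher in hepatocytes after YAP induction, and which were instead brought into the data by endothelial cells or macrophages.

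Livers of C57BL/6 mice were perfused to isolate hepatocytes, and the cells were profiled by droplet-based RNA-seq of transcript 3 prime ends. The control library had the genotype LaptTA;WT, in which a tetracycline transactivator is driven by the liver-specific LAP promoter and there is no inducible transgene. The tetYAP 4W library had the genotype LaptTA; tetYAP, which adds a tetracycline-regulated, activated serine-to-alanine mutant of YAP in the Col1a1 locus. Its label 4W stands for 4 weeks of YAP induction. Doxycycline food keeps the transgene off, and induction starts when mice, then 4 weeks old, are moved to normal food. The study's methods describe doxycycline food for LAP-tTA mice in general and do not state separately what the mice of this control library were fed. Each group has 1 library, so that no test between the groups was possible and all intervals below are exact 95% intervals that cover counting error only.

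YAP does not bind DNA itself. In the nucleus it joins TEAD proteins, which read a short DNA element, and switches on genes of growth, adhesion and the cytoskeleton, whereas the kinases of the Hippo pathway hold it in the cytoplasm of resting hepatocytes. Ctgf and Cyr61 encode secreted matrix-associated proteins and are the most widely used reporters of YAP. Amotl2, Lats2 and Ptpn14 encode brakes on YAP itself: Amotl2 is a scaffold that binds YAP, Lats2 a kinase that phosphorylates it and Ptpn14 a phosphatase-family protein that retains it outside the nucleus. Axl is a receptor tyrosine kinase, Crim1 a transmembrane protein that binds growth factors of the BMP family, Nuak2 a kinase related to AMPK, Gadd45a a stress-response protein and Myof a ferlin that acts in membrane repair.

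Because YAP acts through TEAD, the promoters were searched for the core of the TEAD element, GGAATG, on both strands, where the opposite strand reads CATTCC. RefSeq promoters on GRCm38.p6, the assembly that mm10 names, were given for 8 of the 10 genes, in 9 sequences, and the 250 bases before each start site were read. The element was found in 5 of these 8 genes, Cyr61, Amotl2, Axl, Crim1 and Ptpn14, and in 12.6% of all 32851 promoters, or 14.4% of 27025 genes. Lats2, Gadd45a and Myof had no match in this window. The 5 matches are shown with 12 bases on either side, 5′ to 3′ on the strand of the gene, with the element in capitals, since they allow the genes to be compared by where and how the element lies:
Cyr61: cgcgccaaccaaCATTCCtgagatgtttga
Amotl2: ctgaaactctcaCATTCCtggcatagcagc
Axl: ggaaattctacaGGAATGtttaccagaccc
Crim1: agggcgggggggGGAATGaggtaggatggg
Ptpn14: cctccccggacgCATTCCtggcccgcccag
The element began 103 bases before the start site in Cyr61, 65 in Amotl2, 233 in Axl, 79 in Crim1 and 146 in Ptpn14. The start site used for Amotl2 is not the first base of its RefSeq gene. That gene begins at 102717091 on chromosome 9, so the 250 bases read for Amotl2 lie within it. In Cyr61, Amotl2 and Ptpn14 it lay on the opposite strand, and there the bases CATTCCTG were shared by all 3. Axl held the same bases on the strand of the gene, read as CAGGAATG, and Crim1 did not. The whole 250 bases are given for a secreted reporter and a brake on YAP that carry the hepatocyte results below, Cyr61 (chr3:145649986-145650235, minus strand) and Amotl2 (chr9:102717554-102717803, plus strand), with the element in capitals:
Cyr61: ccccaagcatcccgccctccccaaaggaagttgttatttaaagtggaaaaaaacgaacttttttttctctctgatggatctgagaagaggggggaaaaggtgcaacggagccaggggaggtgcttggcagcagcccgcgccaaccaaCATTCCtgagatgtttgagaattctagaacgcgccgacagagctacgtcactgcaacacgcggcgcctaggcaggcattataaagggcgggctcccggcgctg
Amotl2: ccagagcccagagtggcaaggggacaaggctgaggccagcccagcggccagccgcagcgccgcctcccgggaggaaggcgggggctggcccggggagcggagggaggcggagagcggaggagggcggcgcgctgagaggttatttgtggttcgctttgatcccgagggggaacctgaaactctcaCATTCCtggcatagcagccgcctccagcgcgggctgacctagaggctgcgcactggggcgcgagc
A match is a run of letters and does not show that TEAD binds there.

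Transcripts were counted as unique molecular identifiers (UMIs). The files hold 2989 control barcodes with a median depth of 3117 and a total of 9509885 UMIs, and 1524 tetYAP 4W barcodes with a median depth of 4150 and a total of 6777210. No barcode sequence was in both libraries. Barcodes were assigned to cell classes by UMIs of marker genes, none of which is among the 10 targets. A barcode was called hepatocyte-like where no other class's markers stood out, which gave 2844 control and 713 tetYAP 4W barcodes. The other classes were larger in the tetYAP 4W library, with 151 endothelial-like, 254 macrophage-like and 140 lymphocyte-like (T, NK or B) barcodes against 60, 29 and 5 in the control, and 20 against 5 mesenchymal-like ones. Markers of bile duct cells gave no class. Hepatocyte RNA was present in the other classes too, with a median of 307 UMIs of the 12 hepatocyte markers per lymphocyte-like and 366 per hepatocyte-like tetYAP 4W barcode. The libraries differed in more than the transgene. The median mitochondrial share of hepatocyte-like barcodes was 28.2% (control) and 57.4% (tetYAP 4W), Xist had 3 control and 4859 tetYAP 4W UMIs, and 4 Y-linked genes together had 716 and 0. Sex and induction therefore cannot be told apart.

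In hepatocyte-like barcodes, 6 of the 10 targets were at least 2-fold higher in the tetYAP 4W library and none was 2-fold lower. These were Ctgf, Cyr61, Amotl2, Lats2, Axl and Crim1. Of all 10916 genes with at least 10 UMIs over both libraries, 16.7% were higher and 16.9% lower by this rule, and 8 of the 10 targets, all but Ptpn14 and Myof, had as many UMIs. The median log2 ratio of tetYAP 4W over control was 2.43 for the 8 targets and -0.18 for all genes. Levels are given as CPM, the UMIs of a gene per 1000000 UMIs of the same barcodes. As reads come from transcript ends, CPM are not scaled by gene length.

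Both secreted reporters were near the limit of detection in control hepatocyte-like barcodes. Ctgf (chromosome 10, 24595442 to 24598683, RefSeq symbol Ccn2) had 4 UMIs there, or 0.449 CPM (0.122 to 1.15), and 21 UMIs in tetYAP 4W hepatocyte-like barcodes, or 6.96 CPM (4.31 to 10.6). The intervals did not overlap, and the log2 ratio was 3.95 (2.39 to 5.96). Cyr61 (chromosome 3, 145646971 to 145649985, RefSeq symbol Ccn1) had 18 UMIs, or 2.02 CPM (1.20 to 3.20), in the control and 79 UMIs, or 26.2 CPM (20.7 to 32.6), in the tetYAP 4W library, a log2 ratio of 3.69 (2.94 to 4.52). For both genes even the lower end of the interval was above 2-fold.

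The brakes on YAP differed among themselves. Amotl2 (chromosome 9, 102717091 to 102733418) had 60 control UMIs, or 6.74 CPM (5.14 to 8.68), and 98 tetYAP 4W UMIs, or 32.5 CPM (26.4 to 39.6). Its log2 ratio was 2.27 (1.79 to 2.76). Lats2 (chromosome 14, 57689662 to 57746212) had 45 UMIs, or 5.06 CPM (3.69 to 6.76), in the control and 31 UMIs, or 10.3 CPM (6.98 to 14.6), in the tetYAP 4W library, and its log2 ratio of 1.02 (0.31 to 1.72) only just passed 2-fold and was 0.57 with each barcode thinned to 1000 UMIs. Ptpn14 (chromosome 1, 189728216 to 189876695) had 4 UMIs in each library, too few for a call, with a log2 ratio of 1.56 (-0.86 to 3.98).

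Among the surface proteins, Crim1 (chromosome 17, 78200233 to 78376592) had 35 UMIs, or 3.93 CPM (2.74 to 5.47), in control hepatocyte-like barcodes and 72 UMIs, or 23.9 CPM (18.7 to 30.1), in tetYAP 4W ones, a log2 ratio of 2.60 (2.0 to 3.23). Axl (chromosome 7, 25756500 to 25788924) had 8 UMIs, or 0.899 CPM (0.388 to 1.77), and 48 UMIs, or 15.9 CPM (11.7 to 21.1). Its log2 ratio was 4.15 (3.05 to 5.44), with an interval that overlaps those of Ctgf and Cyr61. Myof (chromosome 19, 37899036 to 38043577) had no UMI in the control and 4 UMIs in the tetYAP 4W library. The fold was 3.93 against a floor of 3 control UMIs, and the lower end of its exact interval was 1.95-fold, with too few UMIs for a call.

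The intervals of the kinase and stress genes included no change. Nuak2 (chromosome 1, 132316125 to 132333488) had 39 UMIs, or 4.38 CPM (3.12 to 5.99), in the control and 21 UMIs, or 6.96 CPM (4.31 to 10.6), in the tetYAP 4W library, a log2 ratio of 0.67 (-0.17 to 1.47), which came to 1.31 with mitochondrial genes left out of the totals. Gadd45a (chromosome 6, 67035096 to 67037407) had 30 and 10 UMIs, at 3.37 CPM (2.27 to 4.81) and 3.31 CPM (1.59 to 6.09), a log2 ratio of -0.02 (-1.22 to 1.05). With barcodes above 30% mitochondrial UMIs left out, Gadd45a was at 2.17 and Nuak2 at 1.71, both past 2-fold. A 2-fold higher level lay within the intervals of both genes as reported, and a 2-fold lower level within that of Gadd45a.

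**Figure D1:**
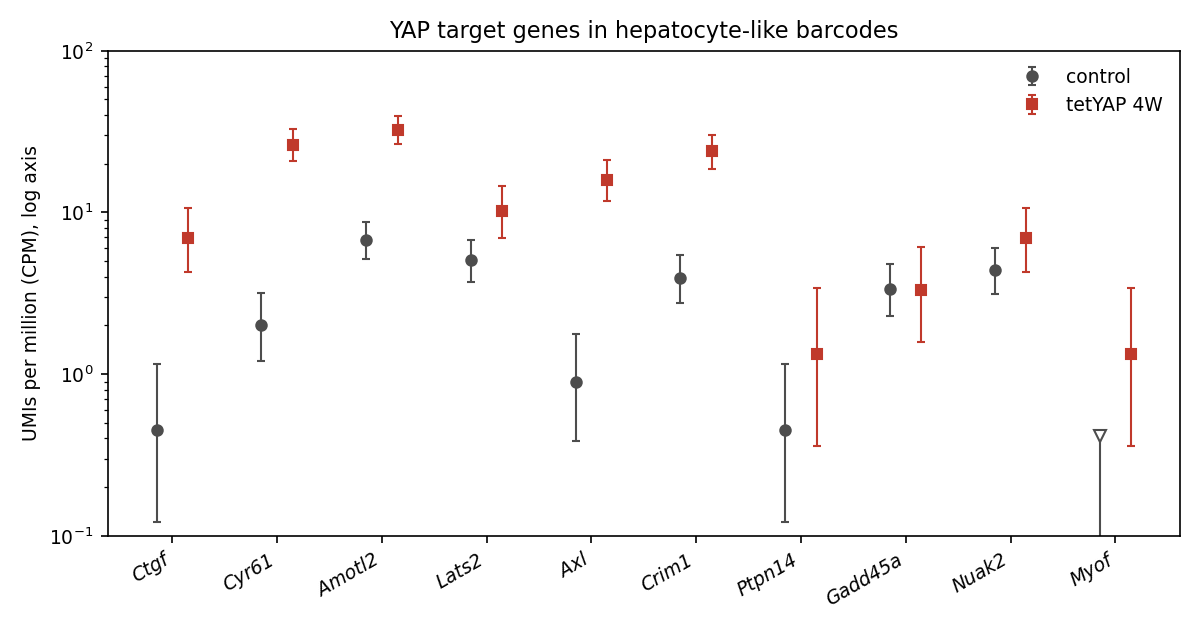
Level of each target in hepatocyte-like barcodes, in CPM on a log axis, in the control (circles) and tetYAP 4W (squares) libraries, with exact Poisson 95% intervals; an open triangle marks the upper bound where no UMI was found. Ctgf, Cyr61, Amotl2, Lats2, Axl and Crim1 lie higher in the tetYAP 4W library with intervals apart, while those of Ptpn14, Gadd45a, Nuak2 and Myof overlap.

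Over all barcodes of each library, which is what a bulk measurement of the same cells would see, 9 of the 10 targets were at least 2-fold higher in the tetYAP 4W library, beside 38.3% of 12621 genes. Here a change in the number of cells of a class and a change in the RNA of each cell cannot be told apart. Axl had 70 control and 640 tetYAP 4W UMIs (log2 ratio 3.68, 3.32 to 4.06), and Myof had 3 and 42 (log2 ratio 4.30, 2.65 to 6.63). Crim1, Lats2 and Nuak2 had log2 ratios of 2.49 (2.09 to 2.91), 1.57 (1.11 to 2.05) and 1.29 (0.78 to 1.82), and Ptpn14, with 8 and 25 UMIs, had 2.13 (0.94 to 3.49). Gadd45a, with 32 and 36 UMIs, was the exception at 0.66 (-0.07 to 1.39). The median of all genes was itself 0.60 in this comparison.

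Where the UMIs of each target lay in the tetYAP 4W library separated the genes into those held by hepatocyte-like, endothelial-like and macrophage-like barcodes. Hepatocyte-like barcodes had 44.5% of all UMIs of the library. They had 63.6% (45.1 to 79.6) of the Ctgf UMIs and 56.4% (47.8 to 64.8) of the Cyr61 UMIs, the 2 targets with most of their UMIs there, and 9.94% of all genes were so placed. They had 43.9% (37.3 to 50.7) of the Amotl2 UMIs. For Crim1, Gadd45a, Lats2 and Nuak2 the share was 28.0%, 27.8%, 25.2% and 23.6%. It was 16.0% (4.54 to 36.1) for Ptpn14, of which endothelial-like barcodes held 52.0% (31.3 to 72.2). It was 9.52% for Myof and 7.50% for Axl, of which macrophage-like barcodes held 54.8% (38.7 to 70.2) and 76.4% (72.9 to 79.6), although these barcodes had only 16.6% of all UMIs.

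**Figure D2:**
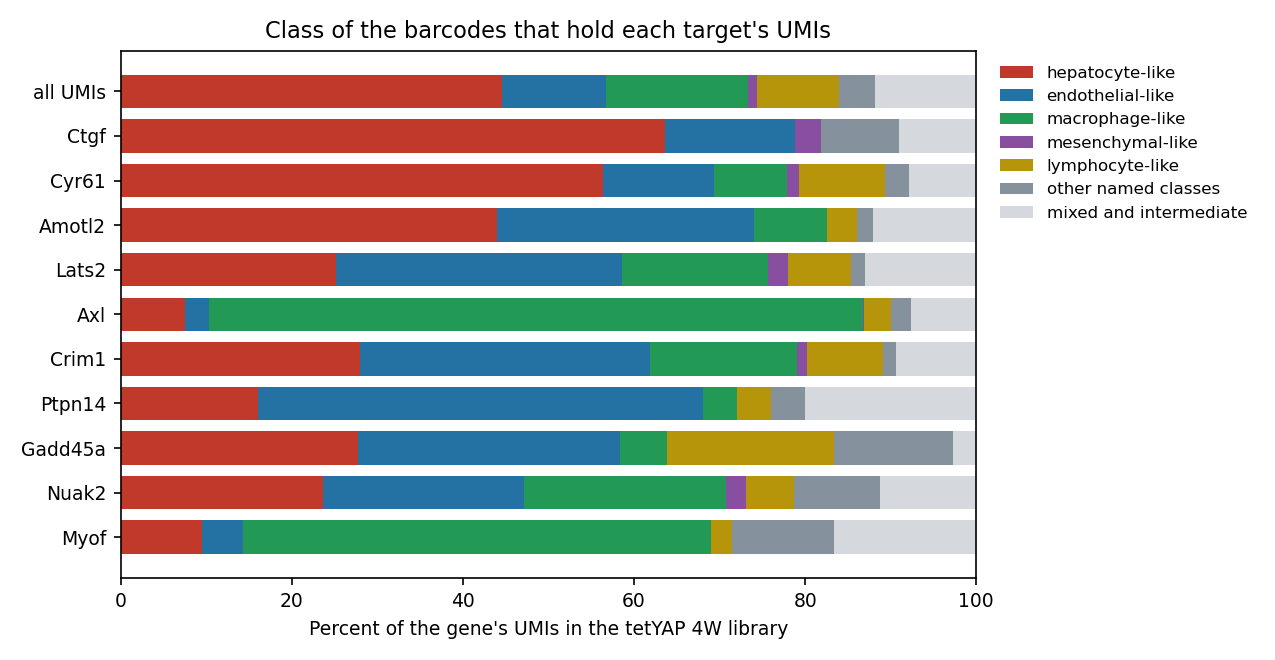
Percent of each target's UMIs in the tetYAP 4W library by class of the barcode, with the division of all UMIs in the top bar. Hepatocyte-like barcodes hold 63.6% of the Ctgf and 56.4% of the Cyr61 UMIs, and macrophage-like barcodes hold 76.4% of those of Axl.

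Axl was highest in macrophage-like barcodes in both libraries. Its level was 485 CPM (366 to 629) in the 29 macrophage-like control barcodes and 434 CPM (397 to 475) in the 254 tetYAP 4W ones, a log2 ratio of -0.16 (-0.56 to 0.27). A UMI of Axl was found in 68.5% of the latter (62.4 to 74.2). No difference within macrophage-like barcodes was detected, while their number went from 29 to 254. Axl was more than 10-fold lower in the other large tetYAP 4W classes, at 30.5 CPM (18.6 to 47.1) in lymphocyte-like, 21.8 (12.9 to 34.4) in endothelial-like and 15.9 (11.7 to 21.1) in hepatocyte-like barcodes, and the intervals of neighbours in this order overlap. Myof was at 20.4 CPM (12.9 to 30.7) in macrophage-like barcodes and at 2.42, 1.52 and 1.33 CPM in endothelial-like, lymphocyte-like and hepatocyte-like ones, whose intervals overlap.

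Among the endothelial-like, macrophage-like, lymphocyte-like and hepatocyte-like barcodes of the tetYAP 4W library, Crim1, Amotl2, Lats2 and Ptpn14 were highest in the endothelial-like ones. Crim1 was at 105 CPM (84.3 to 130) there, followed by macrophage-like barcodes at 39.1 (28.4 to 52.5), lymphocyte-like ones at 35.1 (22.2 to 52.6) and hepatocyte-like ones at 23.9 (18.7 to 30.1), where only the step from endothelial-like to macrophage-like barcodes had intervals apart. Amotl2 was at 81.0 CPM (62.8 to 103) in endothelial-like barcodes and Lats2 at 49.6 (35.6 to 67.3), both above the hepatocyte-like level with intervals apart. Ptpn14 was at 15.7 CPM (8.37 to 26.9) in endothelial-like and 1.33 (0.361 to 3.39) in hepatocyte-like barcodes. In the control the endothelial-like levels of Crim1 and Amotl2 were equal, with 17 UMIs each or 61.4 CPM (35.8 to 98.3).

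Amotl2 and Crim1 differed less between the libraries in endothelial-like than in hepatocyte-like barcodes. The log2 ratio in endothelial-like barcodes was 0.40 (-0.38 to 1.26) for Amotl2, 0.78 (0.02 to 1.62) for Crim1 and 1.46 (0.12 to 3.15) for Lats2. For Amotl2 and Crim1 the interval in hepatocyte-like barcodes lay above it, whereas for Lats2 it overlapped. In all, 3 targets passed 2-fold in endothelial-like barcodes, beside 19.9% of 8332 genes. They were Lats2, Axl, which went from 0 to 18 UMIs and was 2.01-fold higher against a floor of 3 control UMIs, with 1.47-fold as the lower end of its exact interval, and Cyr61, which went from 1 to 18 UMIs with a log2 ratio of 2.59 (-0.07 to 7.97). In macrophage-like barcodes Nuak2 alone passed 2-fold, with 1 and 21 UMIs and a log2 ratio of 1.11 (-1.53 to 6.48), beside 10.4% of 8080 genes. Nuak2 and Gadd45a were spread over the classes. In the tetYAP 4W library Nuak2 had 21 UMIs in each of the hepatocyte-like, endothelial-like and macrophage-like classes, and Gadd45a had 10 in hepatocyte-like, 11 in endothelial-like and 7 in lymphocyte-like barcodes.

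**Figure D3:**
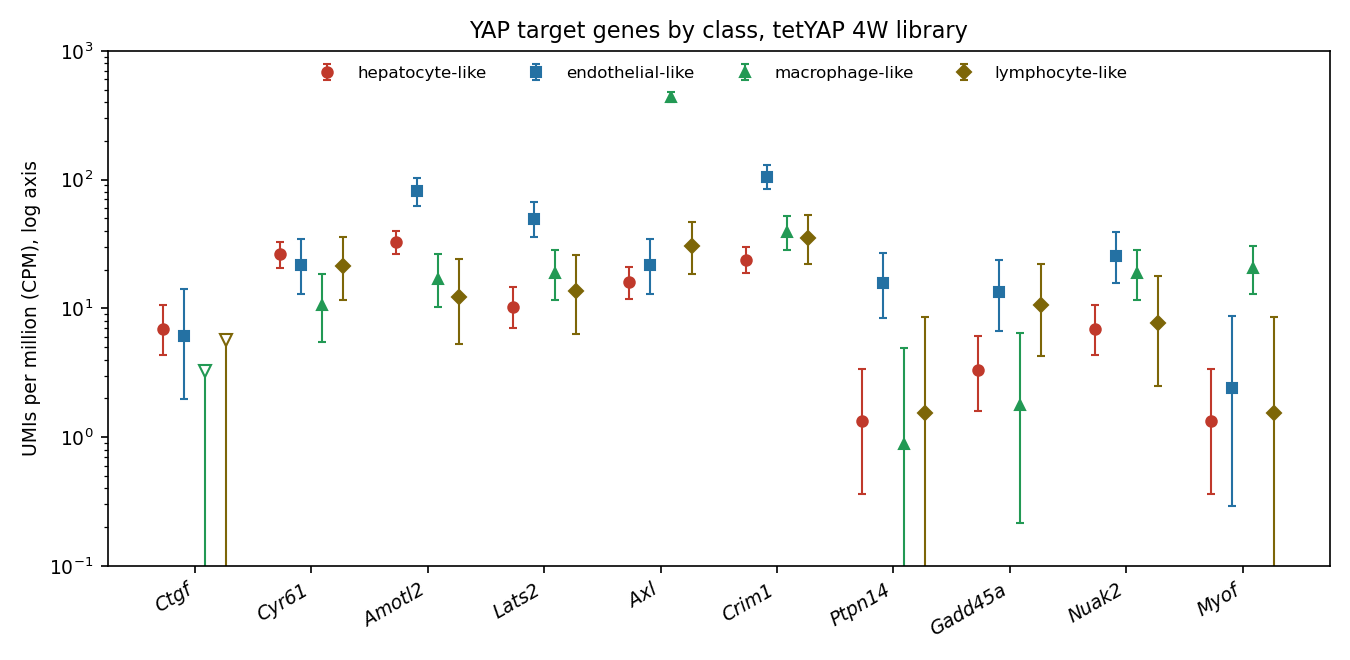
Level of each target by class in the tetYAP 4W library, in CPM on a log axis with exact Poisson 95% intervals; open triangles mark the upper bound where no UMI was found. Axl stands at 434 CPM in macrophage-like barcodes, and Crim1, Amotl2, Lats2 and Ptpn14 are highest in endothelial-like ones.

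Lymphocyte-like barcodes were taken as a comparison for free RNA, although whether lymphocytes express these genes themselves was not tested. They carried hepatocyte RNA too, as the marker UMIs above show. Amotl2 was the 1 target of 10 with a hepatocyte-like level above the lymphocyte-like level and intervals apart, at 32.5 CPM (26.4 to 39.6) against 12.2 (5.26 to 24.0). By the same rule 2.62% of 11828 genes with at least 10 tetYAP 4W UMIs were above and 27.9% below, and none of the targets was below. A UMI of Amotl2 was found in 10.9% of hepatocyte-like (8.74 to 13.5) and 5.71% of lymphocyte-like (2.50 to 10.9) barcodes, at median depths of 4004 and 4536.5 UMIs. The call was lost with each barcode thinned to 1000 UMIs, where 3.93% (2.63 to 5.63) and 1.43% (0.174 to 5.07) had a UMI, and with UMIs counted per barcode in place of CPM.

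Cyr61 did not stand above the lymphocyte-like level in the tetYAP 4W library. It had a UMI in 71 of 713 hepatocyte-like (9.96%, 7.86 to 12.4) and 14 of 140 lymphocyte-like (5.58% to 16.2%) barcodes, at 26.2 and 21.3 CPM (11.7 to 35.8), and after thinning in 2.66% and 1.43%. In 254 macrophage-like barcodes the level was lower, at 10.7 CPM (5.51 to 18.6), with an interval below that of hepatocyte-like barcodes. Endothelial-like barcodes had levels near the hepatocyte-like ones for both secreted reporters. Cyr61 was at 21.8 CPM there, from 18 UMIs, against 26.2 in hepatocyte-like barcodes, and Ctgf at 6.05, from 5 UMIs, against 6.96. Ctgf had a UMI in 2.52% (1.5 to 3.96) of hepatocyte-like barcodes and in 0 of 140 lymphocyte-like ones, which allows a share of up to 2.14% by a floor of 3 counts and 2.6% by the exact interval, and in 0 of 254 macrophage-like ones, which allows up to 1.18% and 1.44%. The hepatocyte-like share was thus within the exact limit for lymphocyte-like barcodes and above that for macrophage-like ones. Its intervals of 4.31 to 10.6 CPM in hepatocyte-like and 0 to 5.62 CPM in lymphocyte-like barcodes overlapped, and they were apart with mitochondrial genes left out of the totals. Crim1 and Axl had a UMI in 14.3% and 13.6% of lymphocyte-like barcodes, against 9.54% and 6.45% of hepatocyte-like ones, and Lats2 in 6.43% against 4.21%, so that these shares were not higher in hepatocyte-like barcodes.

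The part of each target that endothelial, macrophage and mesenchymal RNA would bring into hepatocyte-like barcodes was estimated from further markers of these classes, which took no part in the class call. Their UMIs in hepatocyte-like barcodes were multiplied by the ratio of target to marker UMIs in barcodes of the class. This over-states the carried part where barcodes of a class also hold hepatocyte RNA. Axl had fewer UMIs than this carried part in both libraries, with 48 observed (35.4 to 63.6) against 105 carried in the tetYAP 4W library and 8 (3.45 to 15.8) against 41.5 in the control. A true carried part cannot exceed the UMIs observed, so the estimate was too high for Axl and the carried values are rough. Of the 105 carried UMIs, 102 came from the macrophage term. Only 1.56% of genes were likewise below their carried part in the tetYAP 4W library. Myof had 4 observed against 4.97 carried.

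By this estimate the other targets had more UMIs in tetYAP 4W hepatocyte-like barcodes than these classes would bring. The observed and carried UMIs were 21 and 1.33 for Ctgf, 79 and 5.83 for Cyr61, 98 and 9.51 for Amotl2, and 72 and 19.1 for Crim1. They were 31 and 10.5 for Lats2, 21 and 7.96 for Nuak2, 10 and 1.33 for Gadd45a, and 4 and 1.28 for Ptpn14, whose interval of 1.09 to 10.2 included the carried part. Thus 7 of the 10 targets passed this rule, as did 76.5% of all genes, and 7 passed it in the control as well. The macrophage and endothelial markers themselves were more frequent in the tetYAP 4W hepatocyte-like barcodes. Those used for the estimate came to 0.652 and 0.644 UMIs per barcode, against 0.0482 and 0.226 in the control. The class rule itself let hepatocyte-like barcodes hold more macrophage-marker UMIs in the tetYAP 4W library, as its limit was set above the library median. All 8 genes of each of these marker lists were detected in both libraries.

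**Figure D4:**
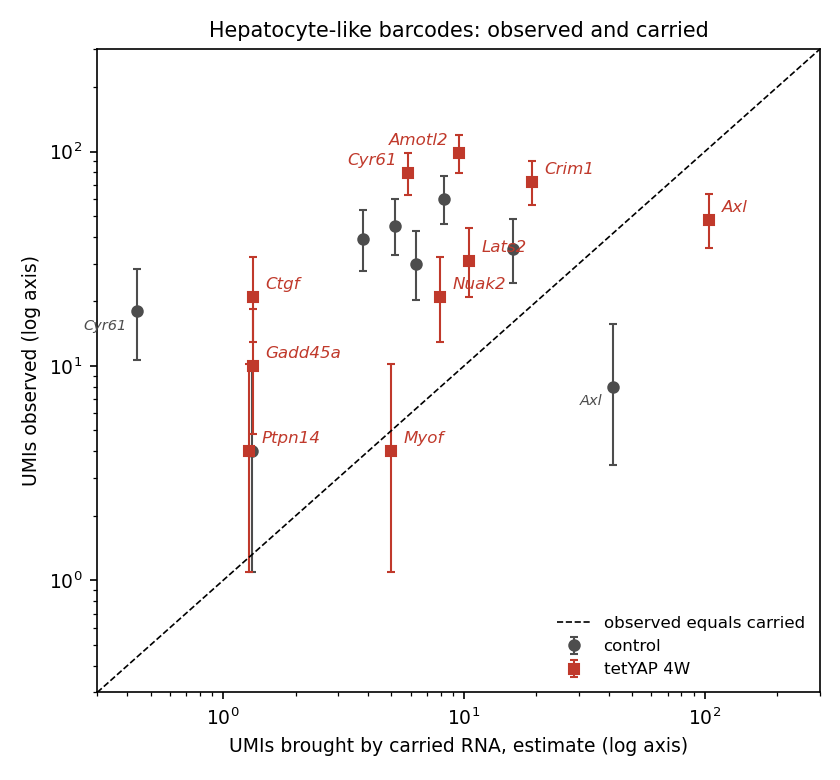
UMIs of each target observed in hepatocyte-like barcodes, with exact Poisson 95% intervals, against the estimate of UMIs carried in by endothelial, macrophage and mesenchymal RNA, both on log axes; the control points of Axl and Cyr61 are named, and targets with no observed or no carried UMI are left out. Axl lies under the line of equality in both libraries, and Cyr61 and Amotl2 lie farthest above it in UMIs in the tetYAP 4W library.

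Within the tetYAP 4W library, hepatocyte-like barcodes with nuclear RNA, seen as at least 10 UMIs of the nuclear transcript Malat1, were compared with the rest, a split chosen after the data were seen. It sets apart 72 of the 713 barcodes, with a median mitochondrial share of 32.0% against 58.1% in the other 641. Amotl2 had 31 UMIs in the 72 barcodes, or 43.1 per 100 barcodes (29.2 to 61.1), against 67 UMIs, or 10.5 per 100 (8.10 to 13.3), in the others. Nuak2 had 11.1 per 100 (4.80 to 21.9) against 2.03 (1.08 to 3.47), also with intervals apart. Ctgf was at 8.33 (3.06 to 18.1) and 2.34 (1.31 to 3.86), Lats2 at 11.1 (4.80 to 21.9) and 3.59 (2.27 to 5.38), and Gadd45a at 5.56 (1.51 to 14.2) and 0.936 (0.344 to 2.04), with intervals that overlap. Cyr61, at 16.7 (8.61 to 29.1) and 10.5 (8.10 to 13.3), and Crim1, at 12.5 (5.72 to 23.7) and 9.83 (7.55 to 12.6), differed less. No difference was detected for Axl, at 6.94 (2.26 to 16.2) and 6.71 (4.86 to 9.04) per 100 barcodes, though the first value rests on 5 UMIs and has a wide interval. The macrophage markers of the estimate were at 73.6 and 64.3 UMIs per 100 barcodes in the same sets, and the endothelial ones at 75.0 and 63.2. The share of all genes with intervals apart in this split was not worked out. Differences of the targets therefore cannot be told apart from a general difference in RNA content between the sets.

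**Figure D5:**
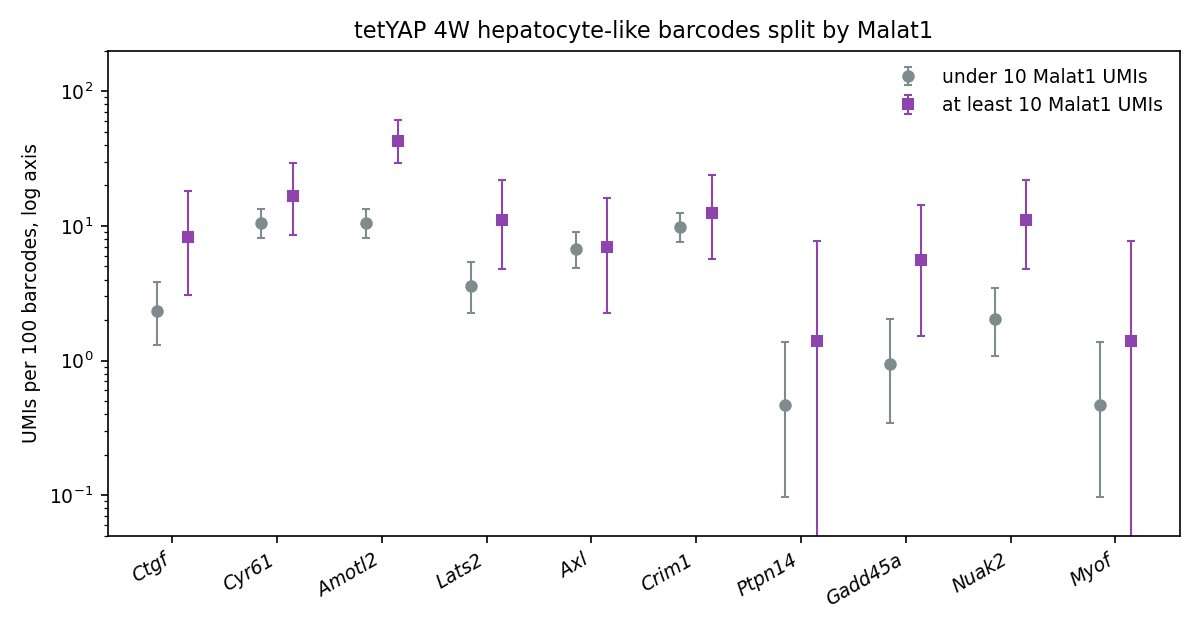
UMIs of each target per 100 tetYAP 4W hepatocyte-like barcodes on a log axis, with exact Poisson 95% intervals, in the 641 barcodes under 10 Malat1 UMIs (circles) and the 72 with at least 10 (squares). Amotl2 stands at 43.1 against 10.5 per 100 and Nuak2 at 11.1 against 2.03, while Axl is at 6.94 and 6.71 with intervals that overlap.

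In the control, 36 hepatocyte-like barcodes had at least 10 Malat1 UMIs, and all 10 targets together had 9 UMIs in them, so that the genes could not be compared one by one. Pooled over the 10 targets, they had 25.0 UMIs per 100 barcodes (11.4 to 47.5), against 8.33 (7.30 to 9.47) in the other control ones. The pooled tetYAP 4W values were 118 (94.3 to 146) and 47.3 (42.1 to 52.9). In CPM the control intervals overlapped, at 26.5 to 110 and 23.4 to 30.4. The tetYAP 4W ones, at 230 to 356 and 99.1 to 125, did not. Whether genes in general differed as much between these sets was not tested. Without the barcodes rich in Malat1 in either library, Ctgf, Cyr61, Amotl2, Axl and Crim1 were still more than 2-fold higher in tetYAP 4W hepatocyte-like barcodes, with log2 ratios of 3.59, 3.58, 1.87, 4.30 and 2.57, and Lats2 fell under 2-fold at 0.78. At the other extreme, with barcodes above 30% mitochondrial UMIs left out, the log2 ratio of Amotl2 was 3.94 and that of Gadd45a turned from -0.02 to 2.17.

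Some barcodes held more than 1 of the targets. At least 2 of the 10 were found in 7.57% (5.74 to 9.77) of tetYAP 4W hepatocyte-like barcodes and in 0.316% (0.145 to 0.600) of control ones. The share was 42.4% (34.4 to 50.7) in endothelial-like, 31.9% (26.2 to 38.0) in macrophage-like and 12.1% (7.24 to 18.7) in lymphocyte-like tetYAP 4W barcodes, of which only the last overlaps the hepatocyte-like interval. Such shares rise with the level of each target alone. The share due to levels alone was not worked out, so whether targets rose together in the same cells was not tested. The UMIs of each gene were spread over many barcodes. The 79 UMIs of Cyr61 in hepatocyte-like barcodes came from 71 barcodes, the 98 of Amotl2 from 78, and the 21 of Ctgf from 18.

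To see which genes followed the targets over the classes, the 3 genes with the highest Pearson correlation were named for Axl, Amotl2, Crim1, Lats2 and Nuak2, which had at least 100 UMIs, over 14 groups of at least 20 barcodes of a class, or of mixed or intermediate barcodes, in a library. The groups share 2 libraries, differ in depth and are not independent, so r is a description. Slc7a8, Ctsc and Cfp were most like Axl (r = 0.97, 0.96 and 0.95). For Amotl2 they were Slc43a3, Wwtr1, which encodes the YAP paralog TAZ, and Arhgef15 (r = 0.93, 0.92 and 0.91), and for Crim1 Heg1, Tns3 and Eva1b (r = 0.92, 0.89 and 0.88). Rpn1, Zmynd8 and Slmap were most like Lats2 (r = 0.92, 0.90 and 0.90), and Mef2d, Rnd3 and Pcnx most like Nuak2 (r = 0.89, 0.84 and 0.83).

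The 22-gene YAP/TAZ signature holds 12 further genes. In hepatocyte-like barcodes 6 of the 12 had at least 10 UMIs, of which 4 were at least 2-fold higher and 1 lower, and their median log2 ratio was 1.94. Of all genes, 16.7% were higher and 16.9% lower there. Nt5e, an ectonucleotidase, had 5 control and 70 tetYAP 4W UMIs (log2 ratio 5.37, 4.08 to 7.03). Asap1, an Arf GTPase activator, Igfbp3, a secreted carrier of insulin-like growth factors, and Ccdc80, a matrix protein, had log2 ratios of 1.93 (1.22 to 2.65), 1.96 (1.04 to 2.90) and 1.98 (0.80 to 3.19). F3, the coagulation tissue factor, was at 18 and 3 UMIs with a log2 ratio of -1.02 (-3.43 to 0.75), and Dock5, a guanine nucleotide exchange factor, at -0.08 (-1.0 to 0.75). Over all barcodes 9 passed the minimum, with 7 higher, 1 lower and a median of 2.13 (log2), beside 38.3% of all genes higher and an all-gene median of 0.60. In addition to those named, Arhgef17, Tgfb2 and Rbms3 had log2 ratios of 2.07, 4.19 and 1.03 there, from 3, 1 and 11 control UMIs. In the tetYAP 4W library Nt5e was at 23.2 CPM (18.1 to 29.3) in hepatocyte-like and 16.8 in lymphocyte-like barcodes, with intervals that overlap. Igfbp3 was at 8.28 CPM (5.36 to 12.2) in hepatocyte-like and 314 (194 to 479) in the 20 mesenchymal-like barcodes. Ccdc80 was at 5.30 (3.03 to 8.61) and 269 (159 to 425) in the same classes. Asap1 was at 13.3 CPM (9.47 to 18.0) in hepatocyte-like and 82.2 (63.9 to 104) in endothelial-like barcodes. Whether the hepatocyte-like UMIs of Igfbp3, Ccdc80 and Asap1 were carried in was not tested.

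Cyr61 is also an immediate early gene and Gadd45a a stress gene, so 13 immediate early and stress genes are given beside them. In hepatocyte-like barcodes 8 of the 13 were at least 2-fold higher in the tetYAP 4W library and 1, Hspa1b, lower, beside 16.7% and 16.9% of all genes. The median log2 ratio of the 13 was 1.19. With all barcodes pooled, 12 of the 13 were higher (median 2.33), beside 38.3% of all genes (median 0.60). The part of these 13 genes in the levels of the targets was not tested.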

How the data were processed

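The authors deposited raw counts, as whole UMIs per gene and barcode, in 1 table of 2 libraries. The submitters' processing notes name Cell Ranger, mm10 and Seurat version 3, and the study's methods describe sampling of cells and a cap on UMIs per barcode. All 4513 barcodes and 0 unmapped columns entered. The 10 targets, marker lists, signature and stress list were chosen with earlier results of these data known, and the class rule was set after the data were seen.

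A barcode was given a class with at least 10 marker UMIs above the library median from at least 3 different markers. It was mixed where more than 1 class passed, and hepatocyte-like where each list was under 5 UMIs above the library median. No doublet caller was run, so doublets may remain. UMIs were summed per class and library and divided by all UMIs of those barcodes. Poisson, Clopper-Pearson and conditional binomial intervals are exact at 95%. A count of 0 was set to 3 UMIs for a bound. A call needed at least 10 UMIs over both libraries and 2-fold. Named genes are all 10 targets, the signature genes with at least 10 UMIs, and the 3 genes most alike in log2(CPM + 10), among genes with at least 100 UMIs that are neither targets nor markers, over groups of at least 20 barcodes. The genes most like Cyr61 are not reported here. Thinning used 1000 UMIs per barcode. The ratio and carried-RNA functions were tested on simulated data. Sequences and coordinates are RefSeq on GRCm38.p6. A genome of an older build was not used. The tools were Python 3.11.15, scipy 1.17.1, scanpy 1.11.5, leidenalg 0.10.2 and, for TMM factors alone, edgeR 4.0.16.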

Additional observations from a re-analysis of the deposited data

How the results depend on the processing

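Ctgf, Cyr61, Amotl2, Axl and Crim1 kept a positive log2 ratio in hepatocyte-like barcodes under every alternative run, and stayed past 2-fold, although Ctgf (3.79) had fewer than 10 UMIs after thinning and so was not called there. Between 4 and 8 targets were higher in hepatocyte-like barcodes and between 8 and 10 over all barcodes. Lats2 fell below 2-fold with the looser class limit (0.95), with Leiden classes (0.96), after thinning (0.57) and without barcodes rich in Malat1 (0.78). Gadd45a turned from -0.02 to 2.17 in hepatocyte-like barcodes when those above 30% mitochondrial UMIs were left out, which leaves 99 tetYAP 4W barcodes, and the cause was not tested. Nuak2 in hepatocyte-like barcodes passed 2-fold under that limit (1.71), with totals without mitochondrial genes (1.31) and with UMIs per barcode (1.10). Over all barcodes it was 0.73 with TMM factors, which shift all log2 ratios there by -0.56. The number of targets above lymphocyte-like barcodes, 1 as reported, was 0 with the looser class limit, with UMIs per barcode, after thinning and per UMI of the hepatocyte markers, and 2 (Amotl2 and Ctgf) with Leiden classes, without barcodes above 30% mitochondrial UMIs and with totals without mitochondrial genes. The number with most tetYAP 4W UMIs in hepatocyte-like barcodes, 2 as reported, was 1 (Ctgf) with the looser class limit, 3 (Ctgf, Cyr61 and Amotl2) with the stricter one and 0 without barcodes above 30% mitochondrial UMIs. Between 6 and 8 targets were above carried RNA. The observed UMIs of Axl were 0.459 to 0.534 of the carried part under each class call and mitochondrial limit. These are ratios of counts without intervals, and under the mitochondrial limit only 7 tetYAP 4W UMIs were observed. Leiden clusters gave no mesenchymal class, so that term was 0 there. The alternatives per hepatocyte-marker UMI, without Malat1-rich barcodes and with mixed and intermediate barcodes added were chosen after seeing the data. With 1 library per group no replicate could be left out. No paired analysis was possible because each group has 1 library. Depth limits the rarest targets most: Ptpn14 and Myof had 8 and 4 UMIs in hepatocyte-like barcodes of both libraries together.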

Other observations

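The tetYAP 4W hepatocyte-like barcode with the most targets, chosen after its values were seen, held 6 of the 10. It had 15 target UMIs among 7346, with 6 of Amotl2, 3 of Cyr61, 2 of Lats2, 2 of Crim1, 1 of Ctgf and 1 of Nuak2. Axl and Myof were at 0. It had 430 Malat1 UMIs, a mitochondrial share of 8.40%, 335 hepatocyte-marker UMIs and 7 macrophage-marker UMIs, and none of the endothelial, mesenchymal or bile duct markers. In control hepatocyte-like barcodes the most targets in 1 barcode was 2.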
